A study of Mus musculus with 186 samples.

Results

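The 41 genes described here encode the machinery of autophagy and its cargo receptors, and they were taken by name from a matrix of 28338 genes. They were read by bulk RNA-seq of Akap11 mutant mouse brain, in 186 libraries. The tissue was prefrontal or somatosensory cortex, striatum, hippocampus, thalamus or substantia nigra, each taken at 4 and at 12 weeks of age. At each age and in each region there were wild-type mice (WT), mice with 1 mutant copy of Akap11 (Akap11 +/-, called HET) and mice with both copies mutant (Akap11 -/-, called KO). Of the 36 groups, 30 held 5 libraries and 6 held 6. The labels do not say how the allele was made, what strain or sex the mice were, or whether libraries that share a sample number came from 1 animal. They also do not say that libraries of a group came from separate animals, so p-values measure only the spread between these libraries. Regions were dissected from frozen brain without sorting of cells, per the labels, so every value averages over neurons, glia and vessels.

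Autophagy delivers cytoplasm, organelles and protein aggregates to the lysosome inside a double-membraned vesicle, the autophagosome. The ULK1 kinase complex starts the process, a phosphatidylinositol 3-kinase complex marks the growing membrane, and ATG9 and ATG2 supply it with lipid. A conjugation system related to ubiquitination then attaches ATG8 proteins (the LC3 and GABARAP families) to the membrane, where cargo receptors bind them. AKAP11 is itself such a receptor: it anchors protein kinase A and carries the kinase's regulatory subunits to the autophagosome. Rare truncating variants of the human gene raise the risk of schizophrenia and bipolar disorder. Neurons depend on autophagy because they do not divide and must clear material from long axons and synapses.

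Many autophagy and lysosomal genes are known targets of TFEB, a transcription factor whose binding element is built around the letters CACGTG. The promoters of the 41 genes were therefore read for these letters in the 250 bases before each start site, in RefSeq sequences of the GRCm38.p6 assembly, and 36 of the 41 genes had an entry. CACGTG, which reads the same on both strands, was present in 3 of the 36 (8.33%), against 6.86% of the 27025 genes with such a window. The 3 promoters belong to Atg3, Atg5 and Atg7, which act in the conjugation system and are shown because they are the members that hold these letters. The longer palindromic form of the TFEB element, known as CLEAR, has these letters at its core and was in 0 of the 36 and in 0.27% of all genes. ATG7 is the activating enzyme, ATG3 transfers ATG8 proteins to lipid, and ATG5 is part of the complex that directs this transfer. The Atg7 start site used here lies inside the gene, which begins at chr6:114643097 in the GENCODE M21 annotation. The Atg7 window is therefore not upstream of the whole gene. All windows are printed on the strand of the gene, and capitals mark the 6 letters.
Atg3, chr16:45158720-45158755, plus strand, 88 bases before the start site: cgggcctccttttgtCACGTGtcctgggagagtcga
Atg3, chr16:45158743-45158778, plus strand, 65 bases before the start site: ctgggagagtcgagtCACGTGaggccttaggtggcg
Atg5, chr10:44268310-44268338, plus strand, 8 bases before the start site: gggcggagcgcttgcCACGTGgtcttggt
Atg7, chr6:114670949-114670984, plus strand, 126 bases before the start site: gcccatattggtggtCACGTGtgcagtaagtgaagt
A match of letters is a description of the sequence and not evidence of binding.

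Libraries held 20.8 M to 73.3 M estimated reads. Levels are given as CPM, a gene's count relative to the scaled total of its library, on 1 scale over all 186 libraries. Akap11 itself was lower in KO than in WT in 12 of 12 region and age groups, with log2 fold changes of -4.30 to -3.65 and no overlap between libraries. In HET its log2 fold change ranged from -0.99 to -0.69, and 10 of the 12 differences passed the test. Several 4-week libraries stood apart by markers of other tissue. In the striatum, the summed level of 7 cortical and hippocampal neuron markers was 826 CPM in WT 92, 1180 in KO 51, 1520 in KO 161 and 731 in KO 163. The other WT striatal libraries lay at 18.7 to 38.7 CPM and the prefrontal WT libraries at 2850 to 4770 CPM. Thalamus WT 913 and 914 were low in thalamic markers, substantia nigra WT 42, WT 92, KO 91 and KO 44 were low in dopamine neuron markers, and somatosensory HET 93 held striatal markers (1780 CPM). A set of 16 libraries, all at 4 weeks and some of them among those just named, held at most 5.55% whole-number values where all others held at least 17.3%. Somatosensory HET 162 at 4 weeks (1020 CPM) and HET 5 at 12 weeks (952 CPM) also held more striatal marker signal than the other HET libraries of their groups (332 to 376 and 310 to 354 CPM) and were left out only singly. Values without the named libraries or without the set of 16 are given where they end a call or move a value by more than 1.5 times.

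All 41 genes passed the filter on low counts in every comparison. Loss of Akap11 left their mRNA levels without a called change in any region at either age. Of 492 KO against WT comparisons (41 genes in 12 region and age groups), edgeR's quasi-likelihood test called 0 at a Benjamini-Hochberg adjusted p under 0.05, where 0.644% of all gene comparisons were called. At an unadjusted p under 0.05 there were 35 of 492 (7.11%, against 8.73% over all genes). DESeq2 called 2, both in the 12-week striatum, and the share of all genes that it called is not given here. The 95% interval of the log2 fold change lay within 0.5 of 0 for 470 of the 492 and within 1 of 0 for 489. The fitted values ran from -0.66 for Map1lc3a in the 4-week substantia nigra to 0.40 for Optn in the 4-week striatum.

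By role, the median KO value over the 12 region and age groups lay between -0.01 and 0.01 for every class of gene, and 0 members of any class passed the test. The values of the 4 ULK1 complex genes (Ulk1, Ulk2, Atg13 and Atg101) ran from -0.44 to 0.11, and those of the 6 genes of the phosphatidylinositol 3-kinase complex and its regulators (Becn1, Pik3c3, Pik3r4, Atg14, Uvrag and Ambra1) from -0.26 to 0.17. The 7 genes of ATG9, lipid transfer and phosphoinositide binding (Atg9a, Atg2a, Atg2b, Wipi1, Wipi2, Wdr45 and Vmp1) ran from -0.22 to 0.19. The 11 conjugation and ATG4 genes (Atg3, Atg4a to Atg4d, Atg5, Atg7, Atg10, Atg12, Atg16l1 and Atg16l2) ran from -0.38 to 0.35. The 5 ATG8 genes (Map1lc3a, Map1lc3b, Gabarap, Gabarapl1 and Gabarapl2) ran from -0.66 to 0.13, the 6 cargo receptors (Sqstm1, Nbr1, Optn, Calcoco1, Tax1bp1 and Tex264) from -0.42 to 0.40 and the pair Vapa and Vapb from -0.22 to 0.13.

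**Figure D1:**
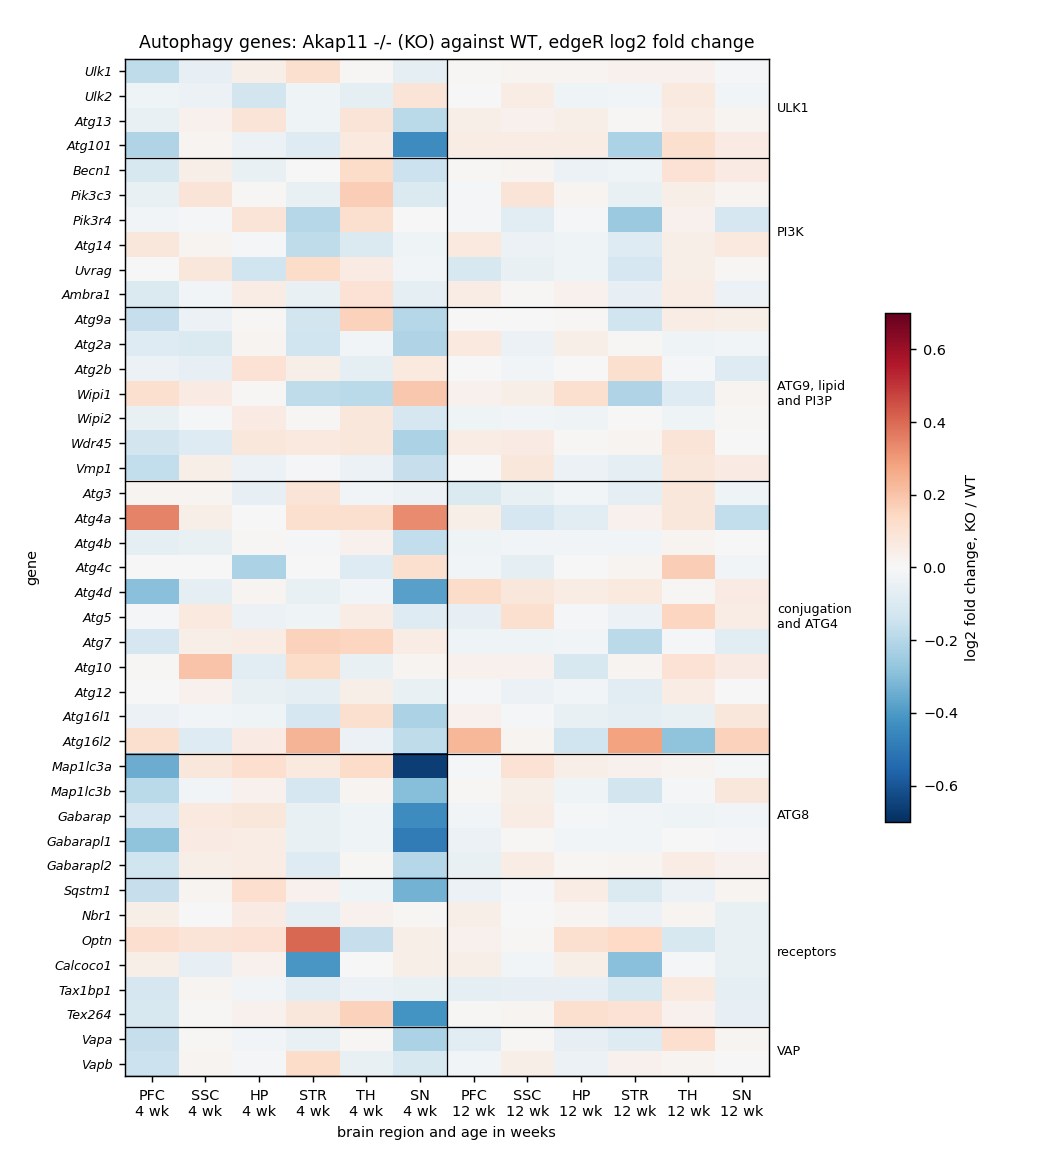
Log2 fold change of KO against WT for the 41 autophagy genes (rows, grouped by role) in each region at 4 and 12 weeks (columns), on a colour scale centred on 0. Values ran from -0.66 to 0.40, and 0 of 492 passed the adjusted test.

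The striatum is where most genes called in KO mice were found, with 3.35% of all tested genes called at 4 weeks and 4.42% at 12 weeks. Among the 41 autophagy genes 0 were called there at either age by edgeR. Counted at an unadjusted p under 0.05, 7 of 41 stood out at 4 weeks (17.9% of all genes did) and 8 of 41 at 12 weeks (15.9%), so the members' share was near the background. Their median log2 fold change was -0.026 at both ages, against -0.002 and 0.005 over all genes. Their median absolute log2 change was 0.078 and 0.066, against 0.120 and 0.101 for all genes. The libraries of KO and WT did not overlap for 0 of the 41 at 4 weeks and for 1, Wipi1, at 12 weeks, against 3.6% and 5.36% of all genes. In the other 5 regions 20 of 410 comparisons reached an unadjusted p under 0.05 (4.88%, against 7.16% over all genes).

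**Figure D2:**
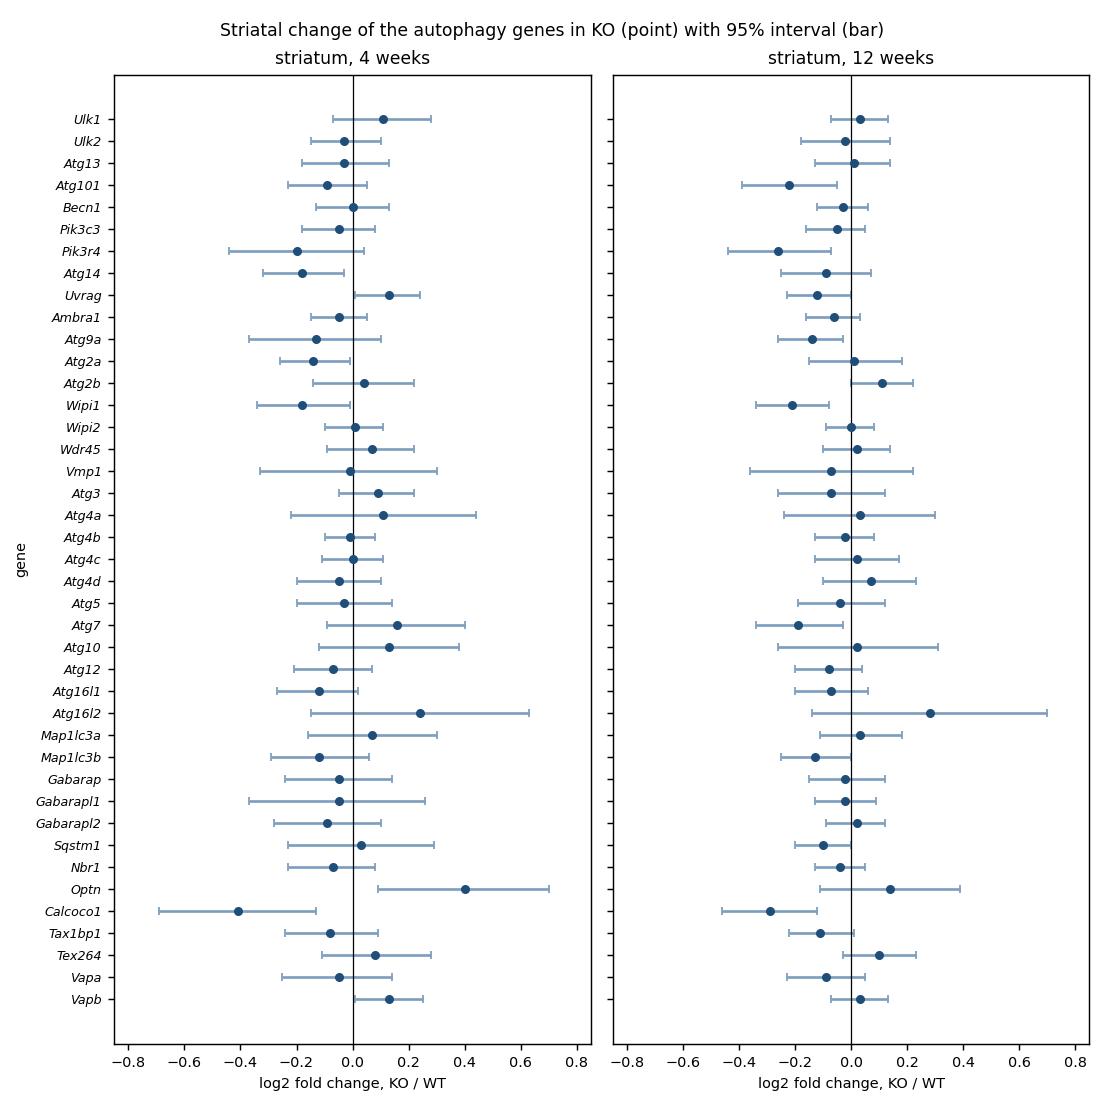
Log2 fold change of KO against WT in the striatum for each of the 41 genes at 4 and 12 weeks, with 95% intervals from the edgeR fit. Calcoco1 had the lowest value at both ages, -0.41 and -0.29, and Optn the highest at 4 weeks, 0.40.

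Calcoco1, which encodes a receptor that links Golgi and endoplasmic reticulum membranes to ATG8 proteins, gave the smallest p of the members in the striatum at both ages. At 12 weeks its levels in KO libraries 1 to 5 were 156, 120, 164, 144 and 150 CPM. In WT libraries 1 to 5 they were 175, 173, 163, 189 and 187 CPM, and in HET they ran from 170 to 224 CPM. Of the 5 KO libraries, 4 lay below every WT library, and the highest KO library was 1 CPM above the lowest WT library. The means were 147 ± 16.6 in KO and 177 ± 10.9 in WT (SD, n = 5 each), a log2 fold change of -0.29 ± 0.08 (SE) with an edgeR adjusted p of 0.0552. That difference did not pass the threshold. It passed under DESeq2 (adjusted p = 0.0119) and with another scaling, the relative log expression of DESeq2 used in edgeR (0.0488). It also passed with a block on sample number (edgeR adjusted p = 0.023), though the labels do not say what same-numbered libraries share. Leaving out WT 3, the lowest WT library, also took Calcoco1 past the threshold (0.0424), and Atg9a with it (-0.19, 0.0449). Under the other 11 of 15 alternatives Calcoco1 was not called. HET differed from WT by 0.10 ± 0.08.

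Of the next 4 genes by p in the 12-week striatum, Wipi1, Pik3r4 and Atg101 act in early steps of the pathway and Atg7 in conjugation. Wipi1 encodes a protein that binds the phosphatidylinositol 3-phosphate made on the forming membrane. Its level was 25.2, 26.4, 25.2, 25.4 and 21.2 CPM in KO 1 to 5 and 29.6, 30.3, 27.3, 27.4 and 26.7 CPM in WT 1 to 5. The groups did not overlap, and the log2 fold change was -0.21 ± 0.06 (edgeR adjusted p = 0.0772, DESeq2 0.0344, and edgeR 0.05, just past the threshold, without KO 2). Pik3r4 encodes the regulatory subunit of the phosphatidylinositol 3-kinase. It stood at 76.8, 61.6, 81.0, 77.1 and 71.6 CPM in KO 1 to 5 and at 83.0, 87.7, 75.7, 96.9 and 92.2 CPM in WT 1 to 5. The groups overlapped through WT 3, and the log2 fold change was -0.26 ± 0.09 (edgeR adjusted p = 0.117). Atg101, a subunit that stabilises the ULK1 complex, stood at 18.6, 16.9, 22.5, 22.9 and 18.5 CPM in KO and at 24.6, 21.7, 21.3, 24.6 and 22.7 CPM in WT. KO 3 and KO 4 lay within the WT range, and the log2 fold change was -0.22 ± 0.08 (edgeR adjusted p = 0.149). Atg7 had a mean of 15.4 CPM in KO and 17.4 CPM in WT, a log2 fold change of -0.19 ± 0.07 (edgeR adjusted p = 0.193). All 6 genes of the phosphatidylinositol 3-kinase group had fitted values below 0 at 12 weeks, from -0.26 to -0.03, and 0 of the 6 passed the test. In this comparison fitted values were above 0 for 15 of the 41 members and for 51.6% of all genes.

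At 12 weeks the summed cortical and hippocampal neuron markers of the striatum were 17.1 to 22.4 CPM in KO, 11.3 to 16.5 in HET and 11.2 to 16.9 in WT, with none of the 7 markers at 0 in a whole group. The 9 striatal projection neuron markers summed to 9780 to 12600 CPM in KO and 9790 to 14000 CPM in WT. The part of these differences in the gene levels was not tested. In bulk tissue, fewer cells of a type and less RNA per cell cannot be told apart.

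At 4 weeks Calcoco1 in the striatum was 184, 115, 96.0, 130 and 150 CPM in KO 12, 51, 161, 163 and 932, and 191, 196, 161, 161 and 186 CPM in WT 42, 92, 142, 913 and 914. The 3 lowest libraries were KO 51, 161 and 163, whose cortical markers summed to 1180, 1520 and 731 CPM and whose striatal markers summed to 6770, 6290 and 9350 CPM. WT 92, with a cortical sum of 826 CPM, had the highest Calcoco1 of these 10 libraries. KO 12 and KO 932 had cortical sums of 16.7 and 21.6 CPM and striatal sums of 19700 and 13600 CPM. The part of these markers in the Calcoco1 levels was not tested. The log2 fold change over all libraries was -0.41 ± 0.13 (135 ± 33.8 against 179 ± 16.8 CPM, n = 5 each, edgeR adjusted p = 0.111). Without the libraries that stood apart (2 KO and 4 WT left) it was -0.08 (edgeR adjusted p = 0.765). Leaving out KO 12 alone took it past the threshold, at -0.55 (edgeR adjusted p = 0.011).

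Optn encodes optineurin, a receptor for damaged mitochondria and protein aggregates. Its level was 7.45, 10.8, 13.2, 10.3 and 7.28 CPM in the 4-week striatum of KO 12, 51, 161, 163 and 932, and 6.42 to 8.26 CPM in the 5 WT libraries. The 3 high KO libraries were again 51, 161 and 163. The log2 fold change was 0.40 ± 0.14 (edgeR adjusted p = 0.146), 0.00 without the libraries that stood apart (0.99) and 0.48 without KO 12 (0.0457). The other 3 genes with the smallest p were Atg14 at -0.18, Uvrag at 0.13 and Atg2a at -0.14, with edgeR adjusted p of 0.165, 0.216 and 0.23.

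**Figure D3:**
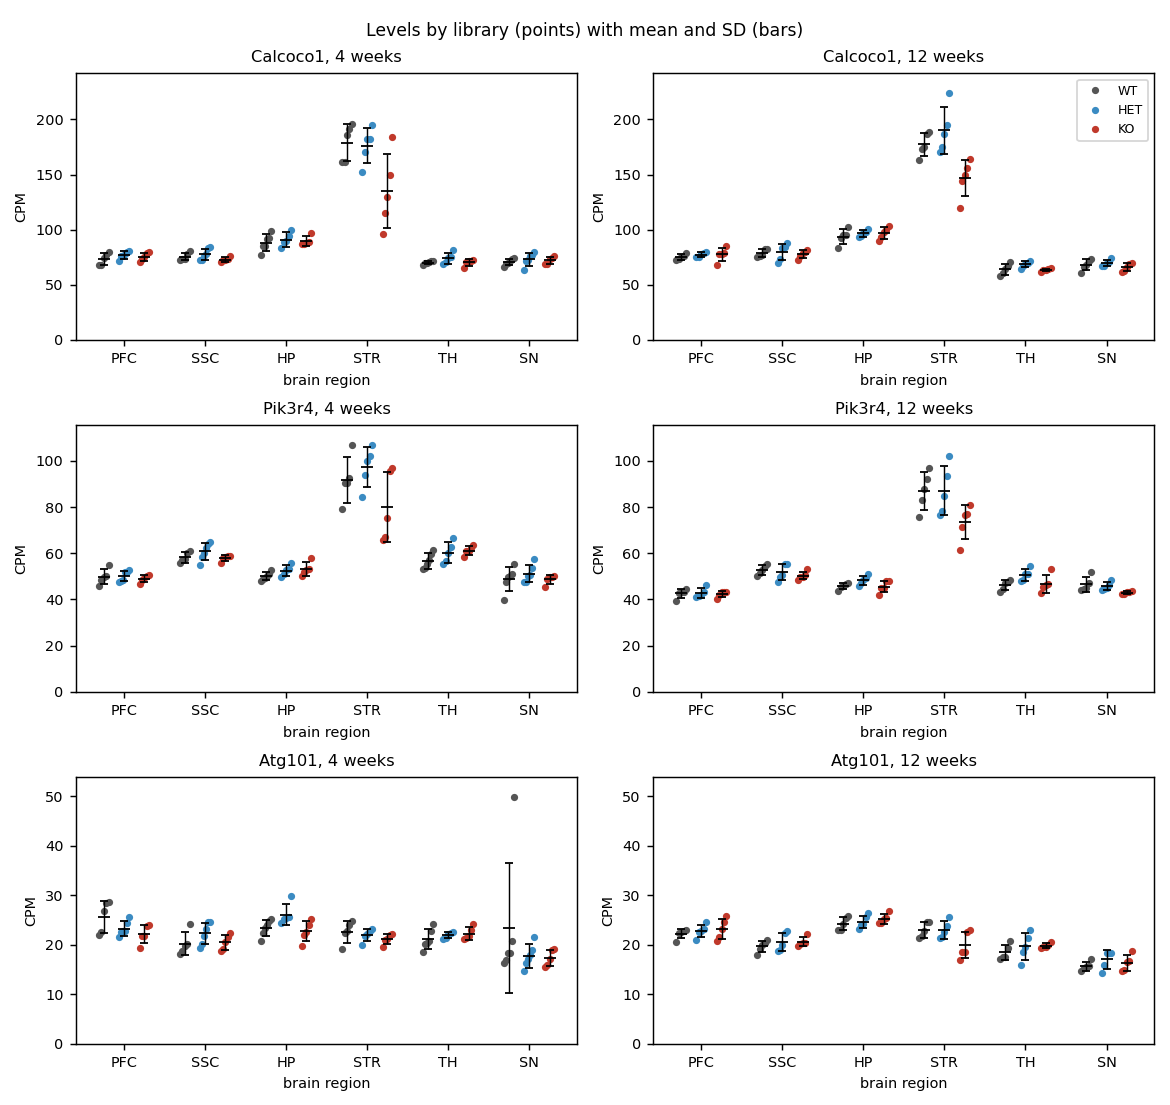
CPM of Calcoco1, Pik3r4 and Atg101 in each library by region, age and genotype, with group mean and SD. WT striatal libraries of Calcoco1 lay at 161 to 196 CPM at 4 weeks and 163 to 189 at 12 weeks, and KO libraries at 96.0 to 184 and 120 to 164.

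Whether the KO effect in the striatum differed from that in the other 5 regions was tested as an interaction among WT and KO libraries. At 12 weeks 3 of 41 members passed this test, each with a lower KO effect in the striatum, where 3.34% of all tested genes were called. For Calcoco1 the difference was -0.29 ± 0.07 (edgeR adjusted p = 0.00623), with KO effects of -0.05 to 0.04 in the other regions. It passed under every alternative run. For Atg101 the difference was -0.29 ± 0.07 (edgeR adjusted p = 0.0132), with effects of 0.05 to 0.11 elsewhere, so that part of this difference lay outside the striatum. For Pik3r4 it was -0.22 ± 0.06 (edgeR adjusted p = 0.032), with effects of -0.12 to 0.03 elsewhere. Atg101 lost its call without KO 2, KO 5 or WT 4 of the striatum, and Pik3r4 without KO 2, KO 5, WT 2, WT 4 or WT 5. Wipi1 and Atg9a, with differences of -0.23 and -0.17, did not pass (edgeR adjusted p = 0.169 and 0.137), although Atg9a did without WT 3 (-0.21, edgeR adjusted p = 0.0254).

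At 4 weeks the only member past the interaction test was Calcoco1, at -0.41 ± 0.09 (edgeR adjusted p = 0.00718), where 2.34% of all genes were called. The KO effects in the other regions were -0.06 to 0.04. Without the libraries that stood apart the difference was -0.07 (edgeR adjusted p = 0.715), and the call was also lost without KO 51 (0.0518) or without KO 161 (0.0625). Without KO 12 or KO 932, the KO libraries with few cortical markers, 3 members were called: Calcoco1, Optn (0.44 and 0.45) and Pik3r4 (-0.30 each). Whether the KO effect itself differed between 12 and 4 weeks was tested in each region, and edgeR called 0 of 246 comparisons, as for 0% of all genes. At an unadjusted p under 0.05 there were 12 of 246 (4.88%, against 5.21% over all genes).

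The ATG8 proteins, which are the anchors for AKAP11 and the other receptors on the autophagosome, had striatal KO values near 0. Their 10 log2 fold changes there ran from -0.13 to 0.07 over both ages, with a smallest edgeR adjusted p of 0.312. The most negative KO value of the whole set was in the 4-week substantia nigra, where 1 WT library was high. There Map1lc3a stood at 540 CPM in WT 92, at 131 to 181 CPM in the other WT libraries and at 127 to 143 CPM in KO. Gabarap stood at 434 CPM in WT 92 and 105 to 153 CPM in the other WT libraries, and Gabarapl1 at 1430 against 449 to 674 CPM. Map1lc3b (526 against 246 to 361 CPM) and Gabarapl2 (246 against 144 to 198 CPM) were also highest in WT 92, which was the only WT library there with low Akap11 (44.8 against 197 to 245 CPM). The Map1lc3a log2 fold change of -0.66 ± 0.32 (edgeR adjusted p = 0.643) became -0.19 (0.63) without the libraries that stood apart. Gabarapl1 went from -0.49 to -0.20 and Gabarap from -0.44 to 0.04.

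Mice with 1 mutant copy gave the same count. Of 492 HET against WT comparisons, edgeR called 0, where 0.00521% of all gene comparisons were called, and 29 reached an unadjusted p under 0.05 (5.89%, against 5.39% over all genes). Values ran from -0.43 for Map1lc3a to 0.28 for Atg16l2, and the interval lay within 0.5 of 0 in 478. The smallest edgeR adjusted p, 0.209, was shared by 3 genes of the 4-week thalamus. They were Atg13 (0.17 ± 0.05), a ULK1 complex subunit, Atg9a (0.21 ± 0.06), the lipid scramblase of the forming membrane, and Wipi1 (-0.30 ± 0.09). DESeq2 called Atg13 at 0.19 (adjusted p = 0.0409) and Atg9a at 0.22 (0.0379). In this thalamic comparison 12 of 41 members reached an unadjusted edgeR p under 0.05, as did 2551 of the 15654 genes tested. Fitted values were above 0 for 32 of the 41 members and for 43.2% of all genes. The thalamic WT group includes the 2 libraries low in thalamic markers, and the values of this comparison without those libraries are not given here.

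The other genes of the pathway were read from a list of 68, of which 67 or 68 were tested in each comparison. The list holds upstream kinases, transcription factors, fusion proteins and further receptors, and edgeR called 0 of them in any KO or HET comparison. In the interaction 0 of 68 were called at 4 weeks. At 12 weeks 2 of 68 were called (2.94%, against 3.34% of all genes): Tbk1, the kinase that phosphorylates optineurin and other receptors, at -0.27 ± 0.08 (edgeR adjusted p = 0.0427), and Wdr41, a partner of C9ORF72, at 0.16 ± 0.05 (0.0291).

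Fitted differences between regions of WT mice reached -1.56 and 1.38 on the log2 scale, against -0.66 and 0.40 for KO against WT. Each region was compared with the mean of the other 5, which gave 246 comparisons per age. At 4 weeks 106 were called (53 higher and 53 lower, 43.1%, against 46.3% of all gene comparisons), and at 12 weeks 161 (80 higher and 81 lower, 65.4%, against 61.6%). The members' shares were near the background at both ages. The order of levels nevertheless set some members apart. The ratio of the highest to the lowest regional mean was 5.01 for Optn at 4 weeks and 5.54 at 12 weeks, and 2.56 and 2.77 for Calcoco1. It was 1.13 to 1.20 for Atg10, Atg2a, Wipi2 and Wdr45.

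**Figure D4:**
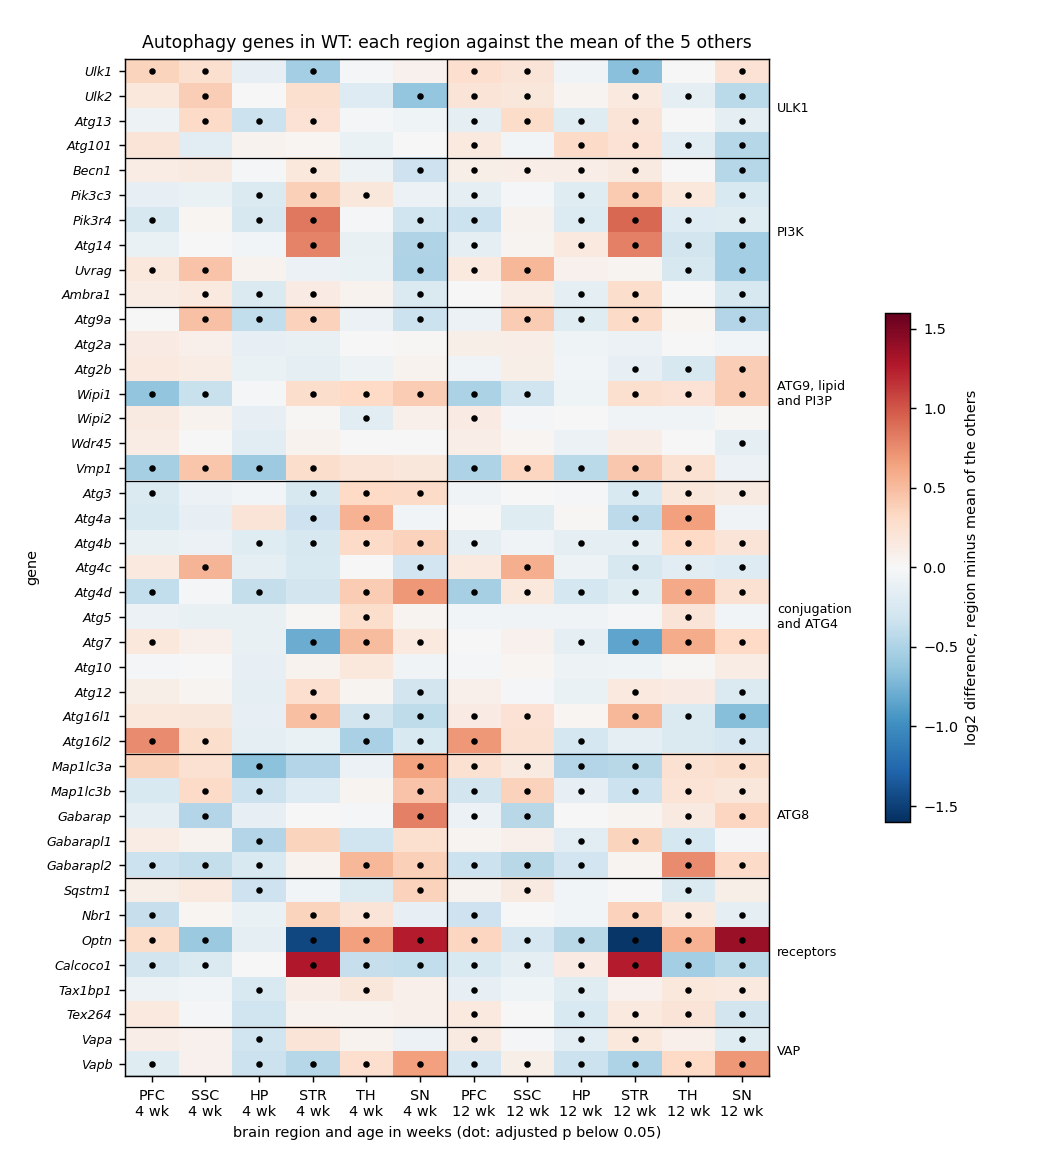
Log2 difference of each region from the mean of the other 5 in WT mice at 4 and 12 weeks, for the 41 genes grouped by role, with dots on called comparisons. Optn in substantia nigra (1.26 and 1.38) and in striatum (-1.46 and -1.56) and Calcoco1 in striatum (1.28 and 1.25) are the strongest colours.

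In the ULK1 complex, Ulk1 is the kinase itself. In the striatum it was 72.5 to 90.2 CPM at 4 weeks and 61.9 to 68.3 CPM at 12 weeks, against 122 to 141 and 107 to 118 CPM in the prefrontal cortex. The 2 regions did not overlap at either age. Against the other 5 regions the striatum stood at -0.54 and -0.67 and the prefrontal cortex at 0.36 and 0.27 (log2). Ulk2, its close relative, was lower in the substantia nigra at 4 weeks (-0.62, and -0.39 without the libraries of few whole numbers, called in both), and Atg101 was higher in the hippocampus at 12 weeks (0.31).

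The phosphatidylinositol 3-kinase complex separated the striatum from the substantia nigra. Of its 6 genes, 5 were higher in the striatum and 0 lower at each age. Of all genes, 26.8% were called higher there and 26.1% lower at 4 weeks, and 32.5% and 34.7% at 12 weeks. In the substantia nigra 0 were higher and 5 (4 weeks) or 6 (12 weeks) were lower. Of all genes, 31.4% were called higher there and 27.5% lower at 4 weeks, and 35.7% and 32.1% at 12 weeks. Pik3r4 was 79.1, 90.3, 90.6, 92.6 and 107 CPM in the 4-week WT striatum and 75.7 to 96.9 CPM at 12 weeks. The means of the other regions were 48.8 to 58.2 and 42.7 to 52.8 CPM, and the log2 difference was 0.84 and 0.92. Atg14, the subunit that directs the kinase to autophagy, was 28.1 to 33.2 and 28.5 to 36.5 CPM in the striatum (0.79 and 0.80). In the substantia nigra it was 12.6 to 16.6 and 13.9 to 17 CPM (-0.48 and -0.55), with no overlap between these regions. At 12 weeks it was also higher in the hippocampus (0.15, a call lost without WT 5 at 0.0761) and lower in the thalamus (-0.29). Uvrag, which takes the place of Atg14 in a complex of the endosome, was higher in the somatosensory cortex (0.46 and 0.53) and lower in the substantia nigra (-0.49 and -0.54).

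Among the genes of lipid supply and phosphoinositide binding, Atg9a was higher in the somatosensory cortex (0.47 and 0.41). Wipi1 was lower in the prefrontal cortex (-0.63 and -0.51) and, at 12 weeks, in the somatosensory cortex (-0.32), and higher in the 12-week substantia nigra (0.41, mean 31.3 CPM). Vmp1, an endoplasmic reticulum protein that acts with ATG2 in lipid transfer, was lower in the prefrontal cortex (-0.53 and -0.49) and hippocampus (-0.58 and -0.43).

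Of the 11 conjugation genes, 6 were higher and 2 lower in the thalamus at each age, where 48.1% of all genes were called at 4 weeks and 66.9% at 12 weeks. In the striatum 2 were higher and 4 (4 weeks) or 6 (12 weeks) lower. Of all genes, 26.8% were called higher there and 26.1% lower at 4 weeks, and 32.5% and 34.7% at 12 weeks. In either direction 52.9% and 67.3% of all genes were called, and the members' share in either direction was near that. Atg7 had 15.8, 16.7, 17.1, 17.5 and 18.3 CPM in the 4-week WT striatum and 15.8 to 18.6 CPM at 12 weeks, against 30.0 to 40.7 and 37.5 to 43.0 CPM in the thalamus. Every striatal library was below every thalamic library, and the striatum stood at -0.79 and -0.84 against the other regions. The proteases that process ATG8 proteins had separate patterns: Atg4a was higher in the thalamus (0.56 and 0.66) and Atg4c in the somatosensory cortex (0.54 and 0.58). Atg4d was lower in the prefrontal cortex (-0.40 and -0.53, the former a call lost without WT 913 at 0.0656) and higher in the 4-week substantia nigra (0.69, and 0.37 without the libraries that stood apart, called in both) and the 12-week thalamus (0.60). Reads of Atg4a may be shared with its pseudogene Atg4a-ps, which matches it over 2115 bases. Atg16l2 was higher in the prefrontal cortex (0.75 and 0.69) and lower in the 4-week thalamus (-0.52). Atg16l1, its paralog in the ATG5 complex, was lower in the 4-week thalamus (-0.30) and the 12-week substantia nigra (-0.68).

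The ATG8 proteins were high in the substantia nigra and low in the hippocampus. Of the 5, 4 were higher in the substantia nigra at each age, where 59% and 67.8% of all genes were called, and 4 were lower in the hippocampus at each age, where 36.4% of all genes were called at 4 weeks and 54.4% at 12 weeks. Without the libraries that stood apart, 3 of 5 were higher in the 4-week substantia nigra, and Map1lc3a then stood at 0.22 (edgeR adjusted p = 0.122). Per kilobase of the longest coding transcript, Gabarapl1 was the most abundant ATG8 mRNA, with regional WT means of 241 to 393 CPM per kb. The means were 81.4 to 194 for Map1lc3a, 68.9 to 119 for Map1lc3b, 59.2 to 128 for Gabarap and 64.8 to 132 for Gabarapl2. The regional order differed by gene.

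At 12 weeks Gabarapl1 was highest in the striatum (716 ± 35 CPM, n = 5) and lowest in the thalamus (502 ± 35.5), while Gabarapl2 was highest in the thalamus (222 ± 14.0) and lowest in the somatosensory cortex (110 ± 5.53). Gabarap was highest in the substantia nigra (138 ± 5.39) and lowest in the somatosensory cortex (87.0 ± 3.91). Map1lc3a was lowest in the hippocampus (90.6 ± 3.72), and its means in the substantia nigra (140 ± 6.38), prefrontal cortex (137) and thalamus (137) differed by less than their spread. Map1lc3b was highest in the somatosensory cortex (276 ± 12.6) and lowest in the striatum (181 ± 13.4). These are differences within 1 gene across regions, on the CPM scale.

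In the tests against the other regions, Gabarapl2 was higher in the thalamus (0.53 and 0.75) and lower in the somatosensory cortex (-0.38 and -0.44). Gabarap was lower in the somatosensory cortex (-0.47 and -0.44), where the 4-week call, at an edgeR adjusted p of 0.047, was lost under 29 of 39 alternatives, among them the other scaling (0.0615) and no low-count filter (0.0557), with values of up to 0.124. It was kept without the libraries that stood apart (-0.37) and without those of few whole numbers (-0.45). It was higher in the 4-week substantia nigra (0.80), and was called there at 0.37 without the libraries that stood apart and at 0.31 without those of few whole numbers. Map1lc3a was lower in the hippocampus (-0.66 and -0.47), and Gabarapl1 was lower in the 4-week hippocampus (-0.47) and the 12-week thalamus (-0.28). Without the libraries of few whole numbers the 4-week hippocampal values were -0.42 and -0.26, both called, and the Gabarapl1 call was lost without WT 914 (edgeR adjusted p = 0.0562) or WT 42 (0.0554).

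Of the cargo receptors, Calcoco1 and Optn had opposite regional orders in the striatum. Calcoco1 was 161, 161, 186, 191 and 196 CPM in the 4-week WT striatum and 163, 173, 175, 187 and 189 CPM at 12 weeks. In the other regions no WT library exceeded 102 CPM. The log2 difference was 1.28 and 1.25 in the striatum, -0.37 and -0.54 in the thalamus and 0.13 in the 12-week hippocampus, the last a call lost without WT 3 (edgeR adjusted p = 0.0989). Optn was 6.42, 7.41, 7.48, 7.76 and 8.26 CPM in the 4-week WT striatum and 6.10 to 7.97 CPM at 12 weeks. In the substantia nigra the 6 libraries at 4 weeks ran from 29.9 to 42.1 CPM, and the 5 at 12 weeks from 32.7 to 43.0 CPM. Optn was also higher in the 4-week thalamus (0.66) and in the prefrontal cortex (0.29 and 0.34). It was lower in the 4-week somatosensory cortex (-0.60) and the 12-week hippocampus (-0.44). Vapb encodes an endoplasmic reticulum protein that tethers this organelle to other membranes. It was 218 to 242 CPM in the 12-week substantia nigra and 105 to 120 CPM in the striatum, and stood at 0.69 in the former against the other regions.

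More of these genes were lower than higher at 12 weeks of age. In WT mice, 64 of 246 comparisons of 12 with 4 weeks were called (26.0%, against 20.6% of all gene comparisons): 13 higher (5.28%, against 9.21%) and 51 lower (20.7%, against 11.4%). Of the 51 lower calls, 40 lay in the initiation and membrane supply genes, the first 3 groups below. In the group of ATG9, lipid transfer and phosphoinositide effectors, 23 of 42 comparisons were lower and 0 higher, with a median log2 change of -0.20. In the ULK1 complex 9 of 24 were lower and 0 higher. In the phosphatidylinositol 3-kinase group 8 of 36 were lower and 2 higher, and in the conjugation group 5 of 66 were lower and 7 higher. The ATG8 proteins had 2 lower and 4 higher of 30, the receptors 4 lower and 0 higher of 36, and Vapa and Vapb 0 of 12.

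**Figure D5:**
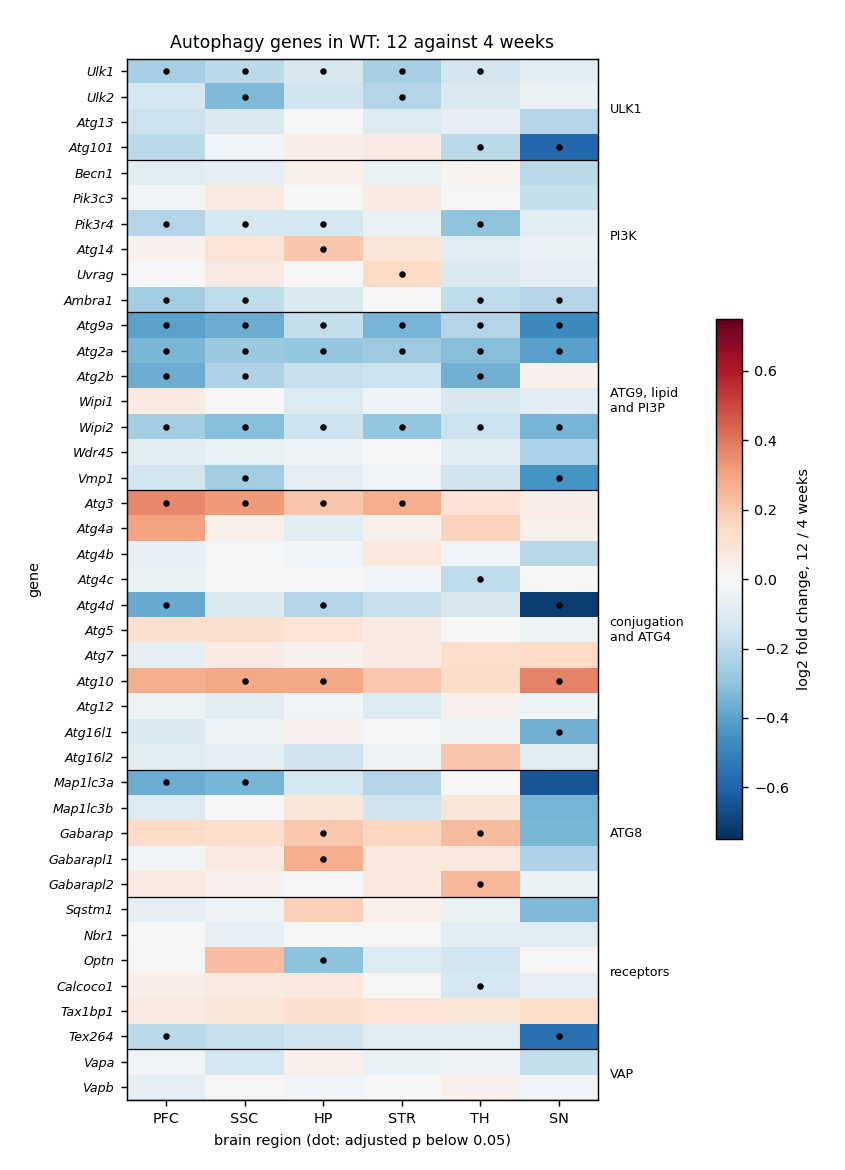
Log2 fold change of 12 against 4 weeks in WT mice for the 41 genes grouped by role in the 6 regions, with dots on called comparisons. Atg9a, Atg2a and Wipi2 are lower in 6 of 6 regions, and Atg3 is higher in 4.

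Atg9a, Atg2a and Wipi2 were called lower at 12 weeks in all 6 regions, also with the other scaling, without the filter, under DESeq2 and without the libraries of few whole numbers. Without the libraries that stood apart, Wipi2 lost its call in the thalamus (-0.11, edgeR adjusted p = 0.123), while the 11 other calls in the 4 regions refitted were kept. Atg9a was 156 to 180 CPM in the 12-week prefrontal cortex and 201 to 263 CPM at 4 weeks, with no overlap (-0.40 ± 0.07, edgeR adjusted p = 0.000257). In the substantia nigra it was 116 to 149 against 164 to 213 CPM (-0.48 ± 0.08, edgeR adjusted p = 0.000106). Its log2 fold change was -0.37 in the somatosensory cortex, -0.35 in the striatum, -0.22 in the thalamus and -0.18 in the hippocampus. Without the libraries of few whole numbers it was -0.20 in the somatosensory cortex and -0.21 in the striatum. Atg2a, which encodes the channel that moves lipid into the growing membrane, was 54.1 to 59.8 CPM in the 12-week hippocampus and 68.2 to 73.6 CPM at 4 weeks (-0.29 ± 0.05, edgeR adjusted p = 0.000338), and its 6 values ran from -0.41 to -0.27. Wipi2, which recruits the conjugation machinery to the membrane, ran from -0.35 to -0.16, with -0.29 ± 0.04 in the striatum (edgeR adjusted p = 1.3e-05). Its value in the substantia nigra, -0.35, was -0.23 without the libraries that stood apart and -0.19 without those of few whole numbers, called in both. Atg2b was lower in 3 regions, by -0.37 in the prefrontal cortex and -0.36 in the thalamus among them.

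Ulk1 was lower in 5 of 6 regions (-0.25 to -0.12 where called), and Pik3r4 and Ambra1, a regulator of the ULK1 and kinase complexes, were each lower in 4. Without the filter these counts were 3, 2 and 3 regions, and with the other scaling Ulk1 was called in 3. Of the 4 regions refitted without the libraries that stood apart, each of these genes was lower in 2. Pik3r4 fell by 0.30 on the log2 scale in the thalamus, and Ulk2 by 0.33 in the somatosensory cortex. Atg4d was lower in the prefrontal cortex (-0.38), hippocampus (-0.22) and substantia nigra (-0.71 ± 0.17). In the substantia nigra it was -0.36 without the libraries that stood apart and -0.38 without those of few whole numbers, called in both. In the hippocampus its call was lost under 7 of 15 alternatives, with no filter (edgeR adjusted p = 0.0646) and without WT 23, 142 or 914 at 4 weeks or WT 1, 2 or 4 at 12 weeks. In the substantia nigra Atg101 (-0.59) and Tex264, a receptor of the endoplasmic reticulum (-0.56), were also called, and both lost the call without the libraries that stood apart (-0.21, edgeR adjusted p = 0.143, and -0.15, 0.17). Optn was lower in the hippocampus (-0.31, edgeR adjusted p = 0.0349), a call lost under 7 of 15 alternatives, with no filter (0.0552) and without WT 23 or 914 at 4 weeks or WT 1, 2, 4 or 5 at 12 weeks.

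Of the 13 rises with age, 7 were in conjugation genes and 4 in ATG8 genes. Atg3 was higher in 4 regions: prefrontal cortex (0.36 ± 0.07, edgeR adjusted p = 0.000541), somatosensory cortex (0.32), striatum (0.27) and hippocampus (0.21). The striatal call was lost without the libraries of few whole numbers (0.28, edgeR adjusted p = 0.0562) and without WT 913 at 4 weeks or WT 2 or 4 at 12 weeks (0.0504 to 0.072). In the prefrontal cortex its libraries were at 35.4 to 41.2 CPM at 12 weeks and 27.3 to 34.3 CPM at 4 weeks, with no overlap. Atg10, the enzyme that joins ATG12 to ATG5, was higher in the substantia nigra (0.37), hippocampus (0.29) and somatosensory cortex (0.29). Its call was lost in the somatosensory cortex without the libraries of few whole numbers (0.23, edgeR adjusted p = 0.112) and in the substantia nigra without 12-week WT 2 (0.0556). Gabarapl1 was 498 to 565 CPM in the 12-week hippocampus and 396 to 469 CPM at 4 weeks (0.27 ± 0.07, edgeR adjusted p = 0.00815). Gabarap was higher in the thalamus (0.24) and hippocampus (0.20), and Gabarapl2 in the thalamus (0.25), where the Gabarapl2 call was lost without WT 913 and 914, which were low in thalamic markers (0.18, edgeR adjusted p = 0.0898). Map1lc3a went the other way, at -0.37 in the prefrontal cortex and -0.35 in the somatosensory cortex. In the somatosensory cortex it was -0.11 (edgeR adjusted p = 0.377) without the libraries of few whole numbers, and the call was lost without WT 914 (0.0913) or WT 142 (0.0803) alone. Atg14 was higher in the hippocampus (0.21), and Uvrag in the striatum (0.15, edgeR adjusted p = 0.0462). The Uvrag call was lost under 12 of 15 alternatives, among them DESeq2, the other scaling and no filter (edgeR adjusted p = 0.109). It was also lost without the libraries that stood apart (0.14, edgeR adjusted p = 0.125) and without those of few whole numbers (0.09, 0.422). The 17 members without a call in any region include Becn1 and Pik3c3, the scaffold and catalytic subunit of the kinase complex, and the receptors Sqstm1, Nbr1 and Tax1bp1.

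The 4-week libraries differed from the 12-week libraries in more than age. The 7 oligodendrocyte markers summed to 10900 to 21700 CPM in the 4-week WT striatum and 4890 to 6500 CPM at 12 weeks. The sums were 22500 to 65300 against 11000 to 14100 CPM in the substantia nigra and 818 to 2160 against 591 to 847 CPM in the prefrontal cortex. The part of this in the changes with age was not tested. The 2 ages also came as separate sets of libraries, so that age and library set cannot be told apart. Without the 16 libraries of few whole numbers, 28 of the age comparisons were called higher and 45 lower, against 13 and 51 with all libraries. The share of all genes called in that fit is not given here. Whether the rises stayed below the share of all genes is therefore not known.

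The wider list of autophagy genes gave 27 higher and 77 lower calls in 403 comparisons of 12 with 4 weeks (25.8%, against 20.6% of all gene comparisons, 9.21% higher and 11.4% lower). Rptor, the mTORC1 scaffold that links nutrient supply to ULK1, and Retreg3, a receptor of the endoplasmic reticulum listed as Fam134c, were lower in all 6 regions. Foxo3, Tecpr2, Trp53inp2 and Tsc2 were lower in 5 regions. Tfeb was lower in 4, and its log2 fold change ran from -1.21 to -0.16 over the 6 regions. The mitochondrial receptor Fundc1 and the endoplasmic reticulum receptor Sec62 were higher in 4 regions each.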

How the data were processed

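Bulk RNA was measured in 186 brain libraries made from 200 ng of total RNA with a stranded mRNA kit, per the labels. The deposited values are estimated counts per gene made by the authors with Salmon on mm10, per the submitters' processing notes. No source used here gives the version, annotation or strand setting. Counts were rounded to whole numbers, and 2991 of 28338 genes were at 0 in every library. Genes were tested with edgeR 4.0.16 (R 4.3.3) using trimmed-mean scaling, a filter on low counts by group and the quasi-likelihood test, with Benjamini-Hochberg adjustment over all genes of a comparison. Genotypes were compared within each region and age, ages within a region, regions within WT at an age, and the striatal KO effect with that of the other 5 regions. A standard error is the log2 fold change divided by the square root of F. The members and lists were chosen with earlier results of these data known. Values are given for every member called in a genotype or interaction comparison, the 5 with the smallest p in each striatal comparison, the 3 largest called rises and falls per region for age and for regions, and the ATG8 proteins throughout. In data simulated for the 12-week striatum (15481 genes), 36 of 50 genes changed by 0.6 on the log2 scale and 6 of 50 changed by 0.3 were called. No 2 replicate libraries agreed within sampling noise: chi-square over its degrees of freedom was 8.36 or more in all 390 pairs. In the GENCODE M21 annotation, 3 members share exons with another gene on the same strand (Atg9a, Wdr45 and Vmp1) and 12 on the opposite strand, and 11 match another gene at 95% or more over at least 200 bases, where reads could be split. Alternatives were another scaling, no filter, DESeq2 1.42.0, fits of 2 genotypes, a block on sample number (limma-voom 3.58.1 for the interaction), and leaving out each library. Leaving out the libraries that stand apart or the 16 with few whole numbers was chosen after seeing the data.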

Additional observations from a re-analysis of the deposited data

Results flagged for a closer look

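In 56 groups checked for a library far from the others, 3 were found. Whether this number exceeds what chance gives was not tested. Akap11 was 44.8 CPM in WT 92 of the 4-week substantia nigra, where the other WT libraries lay between 197 and 245 CPM. Akap11 was 16.8 CPM in KO 161 of the 4-week striatum, where the other KO libraries lay between 21.2 and 21.5 CPM. Wipi1 was 21.2 CPM in KO 5 of the 12-week striatum, where the other KO libraries lay between 25.2 and 26.4 CPM. By the interaction test, 3 genes had a KO effect in the striatum apart from that of the other 5 regions. The test called 1 of the 41 members at 4 weeks and 3 at 12 weeks, where 2.34% and 3.34% of all genes were called. Calcoco1 differed by -0.41 at 4 weeks and by -0.29 at 12 weeks, with edgeR adjusted p of 0.00718 and 0.00623. The 4-week Calcoco1 call was lost under 3 of 16 alternatives. Without the libraries that stood apart that difference was -0.07 (edgeR adjusted p = 0.715). Atg101 differed by -0.29 (0.0132) and Pik3r4 by -0.22 (0.032), both at 12 weeks. Atg101 lost its call under 3 of 14 alternatives and Pik3r4 under 5 of 14.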

How the results depend on the processing

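Of the named called genes and the 5 genes of smallest p in the striatum, none changed direction under an alternative. Gabarap in the 4-week substantia nigra of KO, which was not called, went from -0.44 to 0.04 without the libraries that stand apart. The count of members called in the 12-week striatum, 0 as reported, was 1 with the other scaling, 2 with DESeq2 and 1 with the replicate block (Calcoco1, edgeR adjusted p = 0.023), and 0 to 2 with a library left out. The HET count at 4 weeks was 2 with DESeq2. The 4-week interaction count, 1 as reported, was 0 without the libraries that stand apart, 2 without the 16 libraries of few whole numbers (Calcoco1 at -0.50, edgeR adjusted p = 0.000264, and Ulk1 at 0.27, 0.0168), and 0 to 3 with a library left out. The 12-week interaction count ranged from 1 to 4 with a library left out, and the 4-week striatal count from 0 to 2. In the latter, KO 12 was the library that gave 2. For WT regions the leave-one-out counts were 100 to 147 at 4 weeks (147 without substantia nigra WT 92) and 156 to 166 at 12 weeks, and for age 59 to 69. All other genotype counts stayed at 0 with a library left out. The criterion for pairing, every same-numbered pair correlated above 0.1, was not met across the sets. It was met in 2 of 18 12-week sets of genotypes, and not in the striatum, WT against KO. Correlations of deviations between same-numbered 12-week libraries ran from -0.28 to 0.75, with 62 of 90 over 0.1. In 89 of 180 cases a library correlated best with its own number among the 5 libraries of another genotype. The median of same-numbered pairs was above that of other pairs in 18 of 18 sets, a hint of pairing from the data and not from the design. With the block, 107 region comparisons were called at 4 weeks and 169 at 12 weeks. The shares of all genes called under these alternatives are not given here. Calls of named genes were kept in 389 of 440 alternative values for age, 2477 of 2511 for regions and 47 of 58 for the interaction. Of 155 striatal values 8 passed the threshold under an alternative. At about 5 libraries a group, the simulated test called few changes of 0.3 on the log2 scale, so changes of the size fitted for most members were not detectable at this depth and number of libraries.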

Other observations

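The 16 libraries with few whole-number values had higher levels of the ATG8 genes than the median of the other libraries of their group. The median log2 difference was 0.47 for Gabarapl1 (0.14 to 1.5, higher in 16 of 16), 0.47 for Map1lc3a (0.17 to 1.97, 16 of 16), 0.40 for Gabarapl2 (16 of 16), 0.36 for Gabarap (16 of 16) and 0.36 for Map1lc3b (15 of 16). The receptor Sqstm1, which encodes p62, was higher by 0.45 in 16 of 16, and Vapa by 0.38, while Atg4a was lower (-0.29). The median over all 41 members was 0.08, and over 14089 genes it was -0.04, with the 5th to 95th percentile at -0.28 to 0.35. These libraries were found from the file and not named by the labels, and they fall in all 6 regions and all 3 genotypes.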
